A study of Mus musculus with 74 samples.

Results

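The RNA-seq count table was read for 10 genes of cell-to-cell signalling in gut epithelium: the Notch ligands Dll1, Dll4, Jag1 and Jag2, the receptors Notch1, Notch2 and Notch3, the target genes Hes1 and Hes5, and Atoh1, the transcription factor that starts secretory cell fate. They were chosen by name, and all 10 rows were found among the 24015 gene symbols of the table. The genes were followed through 31 libraries in 15 groups. Wild-type (WT) CD1 mouse embryos gave epithelium of the forestomach (the squamous part of the mouse stomach), the hindstomach (its glandular part) and the small intestine at embryonic days 12, 14 and 16 (E12, E14 and E16), and of the small intestine alone at E18, with 2 libraries per organ and stage. The labels name the E12 and E14 intestinal tissue as midgut. Cdx2, the homeobox gene needed for intestinal identity, was the gene targeted in the other embryonic groups, which were on a B6;129 mixed background. One group was Cdx2f/f; Shh-Cre without any drug, labelled as deleted at E10 and collected at E16, with 3 libraries. The others were Cdx2f/f; Villin-Cre from mice given 5 mg tamoxifen by mouth, labelled as deleted at E13 and collected at E16 or labelled as deleted at E15 and collected at E18, with 2 libraries each. The labels do not say whether replicates came from separate animals or litters, so p-values measure the spread between these libraries, which may be technical. The adult groups, also with 2 libraries each, were villi of the distal ileum on the B6;129 mixed background. Their Cdx2f/f; Villin-Cre mice received 1 mg tamoxifen by injection on 5 days, the Cdx2f/f controls received the oil vehicle, and both were killed 3 days after the last injection. Shh-Cre and Villin-Cre are driven by promoters active in gut epithelium. In the embryo, WT and Cdx2-targeted groups also differ in strain, so genotype and strain cannot be told apart there. Tamoxifen is listed for the groups labelled deleted at E13 and E15 and not for WT embryos, and adult controls received oil alone. Genotype and drug therefore cannot be told apart in those comparisons either. The groups labelled deleted at E10 and at E13 differ in Cre driver and drug as well as in day of deletion.

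Notch signalling passes between touching cells. A ligand on one cell binds a receptor on its neighbour, the receptor is cut by an ADAM protease and then by gamma-secretase, and the freed intracellular part joins the DNA-binding protein RBPJ and switches on Hes genes, which code for repressors. In the intestine Hes1 represses Atoh1. Cells in which Atoh1 escapes that repression become goblet, enteroendocrine or Paneth cells and carry Dll1 and Dll4, while their neighbours become absorptive. In the squamous forestomach, Jagged ligands and Notch receptors mark different layers of the stratified epithelium.

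Several libraries did not match their labels in all respects. Cdx2 lay at 196 and 218 CPM (read counts scaled to a common library size) in E16 WT intestine and at 14.5 to 27.5 CPM in the libraries labelled deleted at E10. In the libraries labelled deleted at E13 it was 213 and 217 CPM, in those labelled deleted at E15 it was 388 and 371 CPM against 200 and 206 CPM in E18 WT, and in the adult libraries labelled deleted it was 472 and 462 CPM against 242 and 248 CPM. Which part of Cdx2 was removed is not stated, and the counts cover the whole gene. These libraries are therefore named by their labels, and a direction drawn from them is a difference from WT, not a shown effect of losing Cdx2. In the 2 libraries labelled E12 hindstomach, Cdx2 was 116 and 160 CPM, against 115 and 153 CPM in E12 intestine and 2.15 to 2.33 CPM in E12 forestomach. Their 5 hindstomach markers summed to 9.34 to 21.1 CPM and their 6 intestinal markers to 175 to 233 CPM. Epithelial markers (Epcam, Cdh1, Krt8, Krt18, Cldn7 and Cldn4) were all above the floor in every group, but their sum was 836 to 904 CPM in E16 forestomach against 3237 to 3288 CPM at E14 and at least 2777 CPM in every other group. The 5 forestomach markers went the other way, at 3548 to 3699 CPM in E16 forestomach against 1002 to 1005 CPM at E14. The 8 blood and immune markers summed to 14361 to 19287 CPM in E16 forestomach against 5.75 to 9.71 CPM at E14. The 11 markers of mural cells and mesenchyme, though, summed to 20057 to 25284 CPM in E16 forestomach, to 6905 to 7182 CPM in E16 hindstomach and to 1364 to 1490 CPM in E16 WT intestine, and to at most 303 CPM elsewhere. Total counts ran from 5970227 to 62463167 per library, with the E16 forestomach libraries the shallowest. In such bulk samples, fewer cells of a type and less RNA per cell cannot be told apart.

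The promoters of Hes5 and Atoh1 are shown because these genes stand for the ends of the pathway, a direct RBPJ target and a gene that Hes proteins repress. RefSeq promoter windows (GRCm38.p6, 250 bases before to 50 after a start site) were found for 9 of the 10 genes (all but Hes1), 10 windows in all since Dll1 has 2. Capitals mark TGGGAA, the core letters bound by RBPJ (TTCCCA on the other strand), and CACNAG, the N-box letters bound by Hes proteins (CTNGTG on the other strand). The Hes5 window (chr4:154960673-154960972, plus strand) holds TGGGAA at base -82 and TTCCCA at base -226 from the start site. The Atoh1 window (chr6:64728875-64729174, plus strand) holds 1 N-box, at base 24 on the other strand.
Hes5: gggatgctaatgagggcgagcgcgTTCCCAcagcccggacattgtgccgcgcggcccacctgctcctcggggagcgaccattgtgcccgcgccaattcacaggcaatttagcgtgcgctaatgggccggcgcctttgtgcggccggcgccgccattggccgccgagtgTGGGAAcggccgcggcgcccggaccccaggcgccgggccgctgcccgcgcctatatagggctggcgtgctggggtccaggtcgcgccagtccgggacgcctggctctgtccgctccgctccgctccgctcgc
Atoh1: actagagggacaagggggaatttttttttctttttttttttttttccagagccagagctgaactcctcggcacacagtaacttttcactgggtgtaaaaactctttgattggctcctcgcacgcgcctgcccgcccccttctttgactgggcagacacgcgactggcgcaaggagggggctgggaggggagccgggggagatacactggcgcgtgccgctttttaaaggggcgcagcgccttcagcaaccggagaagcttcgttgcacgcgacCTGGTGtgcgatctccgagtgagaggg
Among these 10 windows, TGGGAA occurred in the Hes5 window alone, against 25.6% of all 32851 windows of the same length in the table. CACNAG was in windows of Notch1, Notch2, Notch3, Dll1, Dll4 and Atoh1 and in 42.5% of all windows, and TTTATG, core letters of CDX2 sites, was in 11.9%. No member's window held TTTATG. Both strands were searched, and the marked motifs do not overlap in the windows printed. A match of letters is a description of the sequence and not a shown site.

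**Figure D1:**
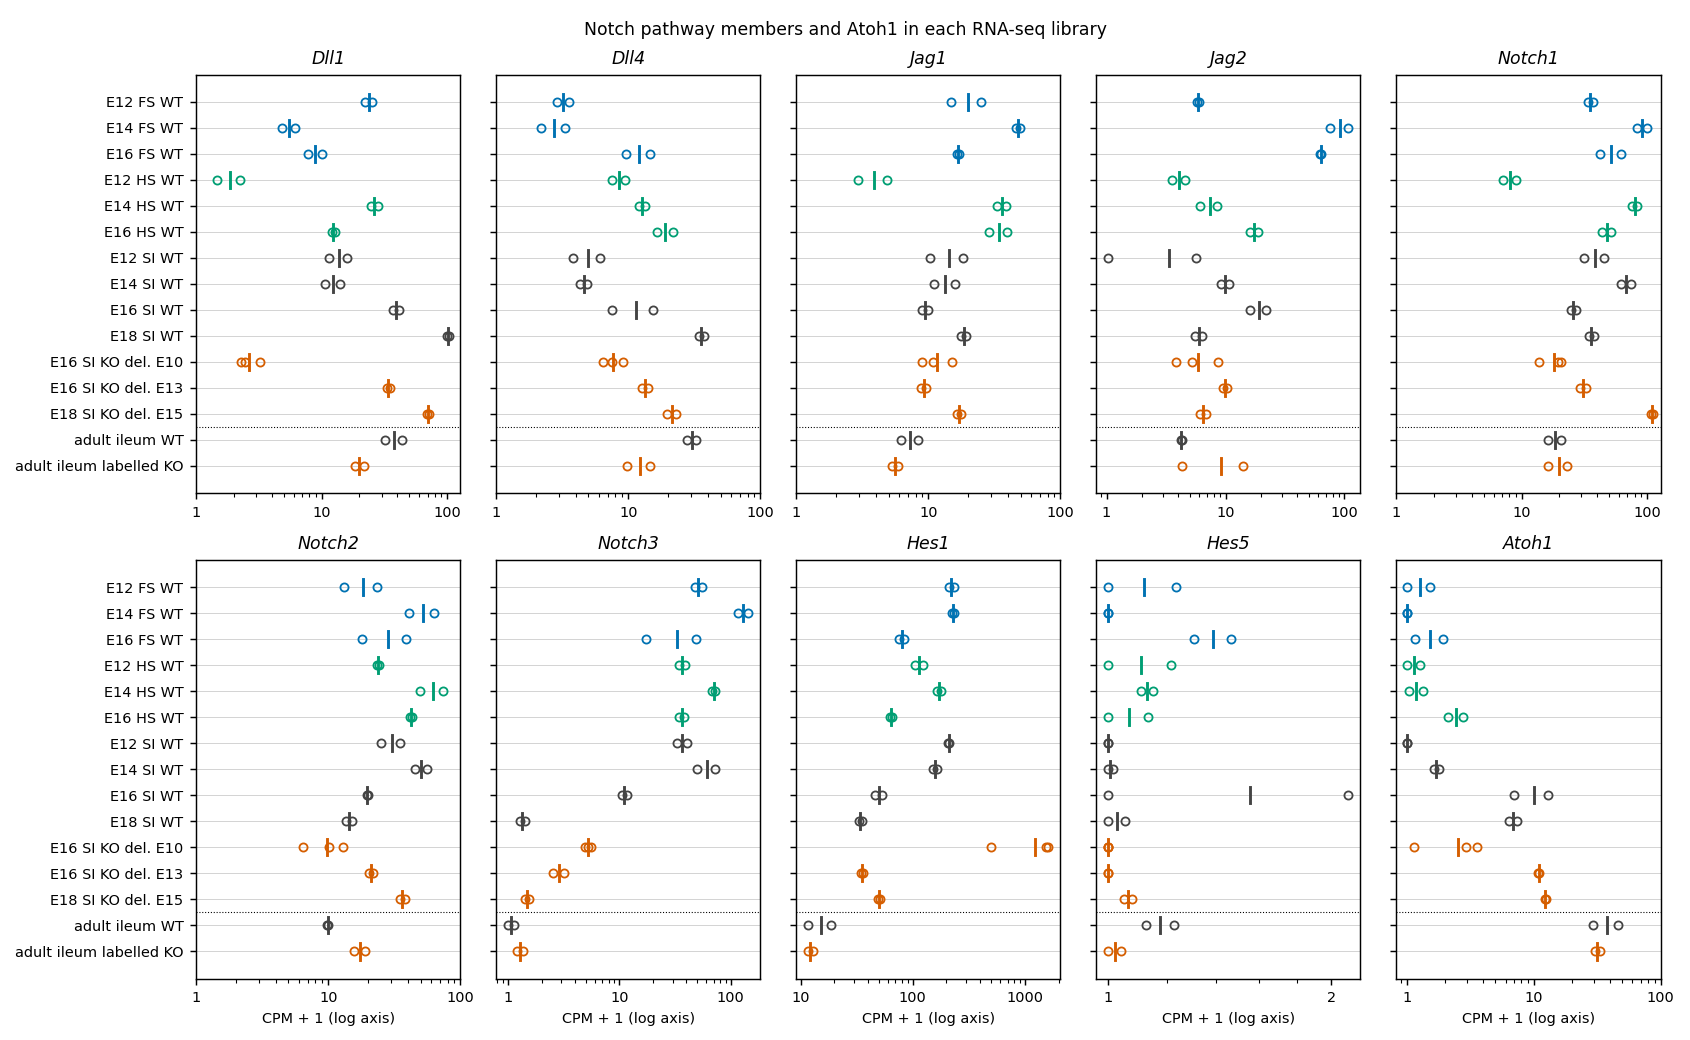
CPM plus 1 (log axis) of each of the 10 genes in every library (circles) with the group mean (bar), in WT forestomach (FS, blue), hindstomach (HS, green), small intestine (SI) and adult ileum (grey), and in the libraries labelled Cdx2-deleted (KO, orange); adult libraries, below the dotted line, were scaled apart. Hes1 is highest in the libraries labelled deleted at E10, at 495 to 1620 CPM, Jag2 is highest in E14 and E16 forestomach, and Atoh1 is at or near 0 in most stomach libraries.

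In WT organs ligands were among the genes called in every comparison of organs except forestomach against intestine at E12. Calls were made with edgeR's quasi-likelihood test and required an adjusted p under 0.05 together with a change of 1 or more, in either direction, on the log2 scale. At E12, 4 of the 10 genes were called between forestomach and hindstomach, where 7.11% of all tested genes were called, and 3 between hindstomach and intestine (9.28%). Between forestomach and intestine at E12 edgeR called 0 of 10 (10.1%), while 4 had an unadjusted p below 0.05 and DESeq2 called 1. At E14 the counts were 3 for forestomach against hindstomach (8.46%), 5 for forestomach against intestine (11.9%) and 3 for hindstomach against intestine (6.83%). At E16 they were 2 (20.1%), 4 (35.0%) and 4 (25.7%) in the same order. Between stages the genes called were 6 from E12 to E14 and 5 from E14 to E16 in forestomach (12.7% and 37.7% of all genes), and 4 and 2 in hindstomach (17.2% and 22.0%). In intestine they were 1 from E12 to E14, 7 from E14 to E16 and 5 from E16 to E18 (16.2%, 25.6% and 42.1%).

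Dll1, the ligand that in the intestine marks cells entering the secretory lineage, showed the clearest turn between organs. It was 10.5 and 14.8 CPM in E12 intestine, 9.70 and 13.1 CPM at E14, 40.4 and 36.2 CPM at E16 and 102 and 99.5 CPM at E18. The E12 and E14 values overlap, and each later stage lies above the one before. Dll1 rose by 1.75 ± 0.28 SE on the log2 scale from E14 to E16 (edgeR adjusted p = 6.5e-05) and by 1.39 ± 0.28 SE from E16 to E18 (edgeR adjusted p = 2.7e-04). E18 epithelium was released with EDTA and not sorted for the epithelial surface protein Epcam, so the last step also compares 2 preparations.

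In the stomach Dll1 moved otherwise. It was 21.0 and 24.4 CPM in E12 forestomach, 3.85 and 5.10 CPM at E14 and 6.79 and 9.03 CPM at E16, and it fell from E12 to E14 by 2.34 on the log2 scale (SE 0.29, edgeR adjusted p = 1.2e-05). In hindstomach it was 1.23 and 0.479 CPM at E12, 23.7 and 27 CPM at E14 and 11 and 11.7 CPM at E16. It rose from E12 to E14 (4.89 ± 0.34 SE, edgeR adjusted p = 4.6e-09), with the reservation that the earlier libraries carry intestinal levels of Cdx2, and fell from E14 to E16 by 1.16 (SE 0.28, edgeR adjusted p = 0.00329). The change of Dll1 from E14 to E16 differed between intestine and hindstomach by 2.91 ± 0.40 SE on the log2 scale (edgeR adjusted p = 4.4e-05), and this difference was called with each library left out in turn. For that difference 2 of the 10 genes were called, against 13.1% of all genes. Hindstomach and forestomach differed in the change of 3 genes from E14 to E16 (11.8% of all genes). Between intestine and forestomach edgeR called 0 of 10 (25.4%), with 1 at an unadjusted p below 0.05 and 0 called by DESeq2. By E16, Dll1 was 4.84-fold lower in forestomach than in intestine (edgeR adjusted p = 4.6e-06) and 3.38-fold lower in hindstomach (edgeR adjusted p = 7.2e-05). Epithelial markers at E16 summed to 836 to 904 CPM in forestomach, 5340 to 5578 CPM in hindstomach and 7873 to 8112 CPM in intestine. Epcam alone was 137 and 112, 421 and 400, then 1284 and 1291 CPM. The part of these levels in the differences of Dll1 between organs, and in its change from E14 to E16, was not tested. At E14 the order of Dll1 was different: hindstomach exceeded forestomach 5.66-fold (edgeR adjusted p = 6.7e-06) and intestine exceeded forestomach 2.54-fold (edgeR adjusted p = 0.00219). Hindstomach was also above intestine, by 1.16 (edgeR adjusted p = 0.00891), but this call was lost without E14 intestine library 1 (adjusted p = 0.171) or E14 hindstomach library 2 (0.0827). At E12, hindstomach-labelled libraries were 26.5-fold below forestomach and 14.7-fold below intestine (edgeR adjusted p = 1.3e-08 and 1.9e-07). A fit of the E12 hindstomach and intestine libraries alone gave an adjusted p of 0.129 for that last difference. Without E12 hindstomach library 1, the rise of Dll1 to E14 was 5.71 on the log2 scale, forestomach exceeded hindstomach by 5.55 (from 4.73) and the difference from intestine was -4.71 (from -3.88), each still called. Over the 13 embryonic groups, the mean of Dll1 was highest in E18 WT intestine (101 CPM), followed by the libraries labelled deleted at E15 (69.6 CPM), E16 WT intestine (38.3 CPM) and the libraries labelled deleted at E13 (32.9 CPM), and none of these neighbours overlapped.

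**Figure D2:**
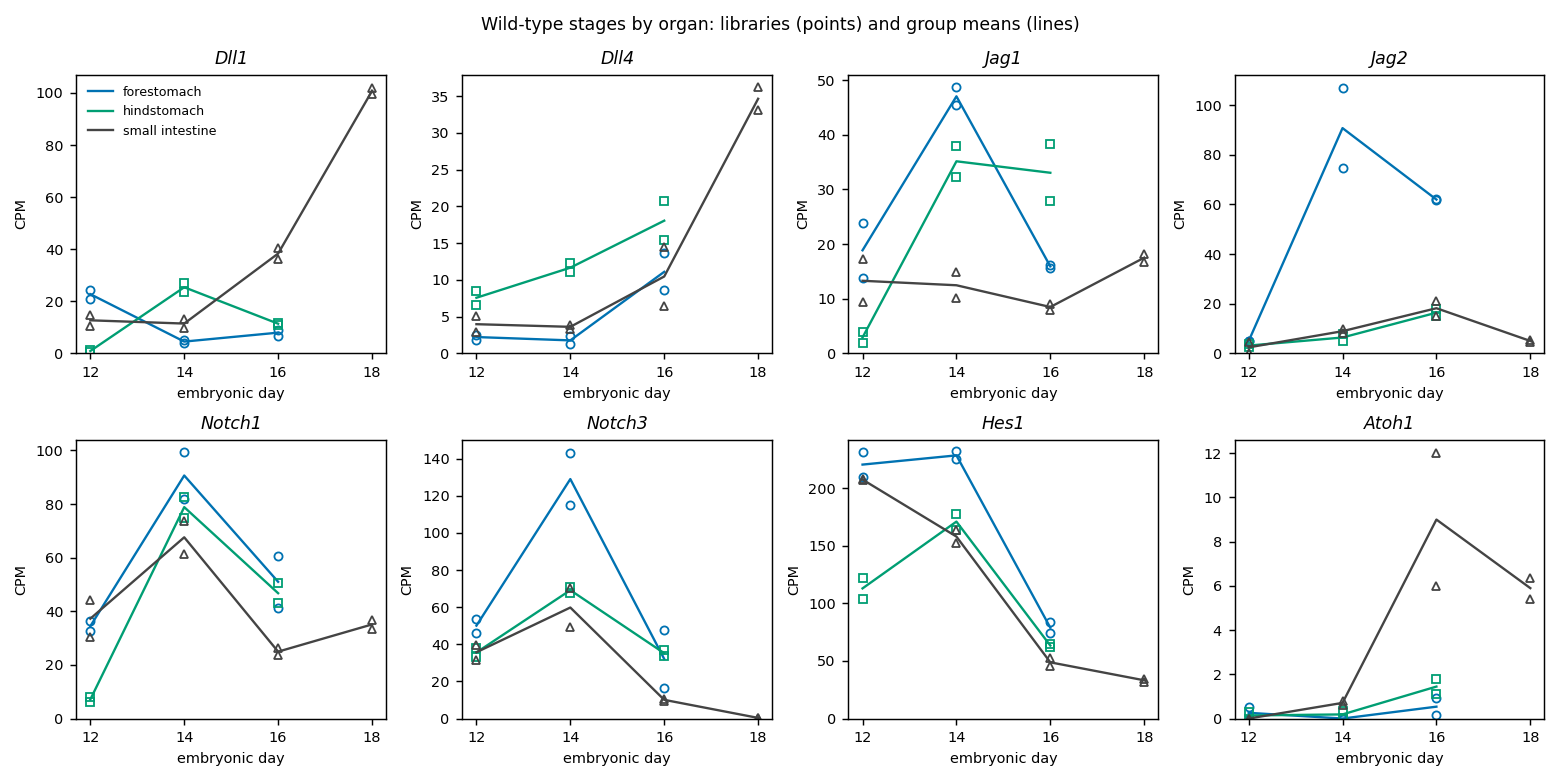
CPM of 8 genes in WT libraries (points) and group means (lines) against embryonic day, for forestomach (circles, blue), hindstomach (squares, green) and small intestine (triangles, grey); each panel has its own scale, from 0. Dll1 climbs from 11.4 to 101 CPM in intestine between E14 and E18 while no stomach library exceeds 27 CPM, Jag2 peaks in forestomach, and Notch3 and Hes1 lie lower at E16 than at E14 in each organ.

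Dll4, the second Delta ligand of the intestinal secretory lineage and also a ligand of blood vessel endothelium, was low at E12 and E14 in forestomach (1.87, 2.54, 2.31 and 1.19 CPM) and intestine (5.07, 2.84, 3.29 and 3.90 CPM). In hindstomach it was 6.58 and 8.53 CPM at E12, 12.3 and 11 CPM at E14 and 20.7 and 15.4 CPM at E16. Hindstomach at E14 stood 6.68-fold above forestomach (edgeR adjusted p = 1.3e-04) and 3.25-fold above intestine (edgeR adjusted p = 0.00724). The second call was lost without E14 intestine library 1 (0.114) or E14 hindstomach library 1 (0.0606). At E12 forestomach was below the hindstomach-labelled libraries, which carry intestinal levels of Cdx2, by 1.77 (edgeR adjusted p = 0.00649). That call was lost without E12 forestomach library 1 or E12 hindstomach library 2, with a log2 fold change of -1.57 in each case. In forestomach Dll4 then rose to 13.6 and 8.57 CPM at E16 (2.66 ± 0.43 SE, edgeR adjusted p = 3.9e-05), while its change in hindstomach, 0.63 ± 0.38 SE, was not called (edgeR adjusted p = 0.217). In intestine it was 14.4 and 6.50 CPM at E16 and 33.1 and 36.2 CPM at E18. The step from E14 to E16 was 1.54 ± 0.40 SE (edgeR adjusted p = 0.00424) and lost its call without E16 intestine library 1 (0.85, adjusted p = 0.145) or E14 intestine library 1 (0.0518). The step from E16 to E18 was 1.73 ± 0.39 SE (edgeR adjusted p = 1.0e-03), and 2.41 without E16 intestine library 1. The 9 endothelial markers summed to 347 to 358 CPM in E16 forestomach against 18 to 18.6 CPM at E14, and to 74.5 to 84.1 CPM in E16 intestine against 27.2 to 31.8 CPM at E14. In hindstomach, where the change of Dll4 was not called, they summed to 188 to 276 CPM at E16 against 30.8 to 31 CPM at E14. Their part in the level of Dll4 at E16 was not tested in any of the 3 organs. From E16 to E18 in intestine the same markers were lower, at 4.36 to 6.09 CPM with Cdh5, Tek, Emcn and Cldn5 at 0, while Dll4 was higher.

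Jag1, a Jagged ligand found on epithelial and mesenchymal cells, was highest in E14 forestomach. It was 13.8 and 23.9 CPM in E12 forestomach, 45.4 and 48.7 CPM at E14 and 16.2 and 15.6 CPM at E16. In hindstomach it was 3.85 and 1.92, then 32.3 and 38.0, then 27.8 and 38.3 CPM. Jag1 rose 12.2-fold between E12 and E14 in the hindstomach-labelled libraries (3.61 on the log2 scale, edgeR adjusted p = 1.2e-06) and fell 2.96-fold between E14 and E16 in forestomach (edgeR adjusted p = 0.00125). Its rise in forestomach from E12 to E14, 1.32 ± 0.35 SE (edgeR adjusted p = 0.0092), was lost without E12 forestomach library 1 (0.126) or E14 forestomach library 2 (0.0504). Intestine held 17.2 and 9.34 CPM at E12, which overlaps forestomach and lies above the hindstomach-labelled libraries. At E14 and E16 it held 10.1 and 14.8, then 8.96 and 7.97 CPM, below both stomach parts. E16 hindstomach exceeded E16 intestine 3.91-fold (edgeR adjusted p = 2.7e-04), and E14 forestomach exceeded E14 intestine 3.80-fold (edgeR adjusted p = 5.5e-04). At E12 the hindstomach-labelled libraries were below forestomach 6.56-fold (edgeR adjusted p = 5.3e-05) and below intestine 4.60-fold (edgeR adjusted p = 4.7e-04; 0.253 when these groups were fitted alone). Without E12 hindstomach library 1 these 3 differences of the hindstomach-labelled libraries were larger, at 4.2 from E12 to E14, 3.30 against forestomach (from 2.71) and -2.79 against intestine (from -2.20). With any one library left out, the values smallest in size were 3.20, 2.27 and -1.70 in the same order. Weaker differences were E14 hindstomach over intestine (1.51, edgeR adjusted p = 0.00716, but 0.147 without E14 intestine library 1 and 0.0662 without E14 hindstomach library 2) and E16 hindstomach over forestomach (edgeR adjusted p = 0.0287). That last call was lost without either forestomach library (0.113 and 0.119), without hindstomach library 2 (0.189) and with DESeq2 (0.059). The rise in intestine from E16 to E18, 1.05 ± 0.36 SE (edgeR adjusted p = 0.0175), was lost without either E16 library (0.0538 and 0.0945) or E18 library 1 (0.0713).

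Jag2, the other Jagged ligand, was highest in forestomach at E14. It was 5.00 and 4.79 CPM in E12 forestomach, 74.5 and 107 CPM at E14 and 62.2 and 61.7 CPM at E16. No other group exceeded 21.1 CPM. The rise from E12 to E14 was 18.6-fold (log2 4.22 ± 0.80 SE, edgeR adjusted p = 7.4e-04). E14 forestomach was 14.4-fold above hindstomach (edgeR adjusted p = 0.00205) and 10.2-fold above intestine (edgeR adjusted p = 0.00356). Those calls narrowly failed without E14 hindstomach library 1 (0.0517) and E14 intestine library 1 (0.0609). At E16 the excess over hindstomach was 3.79-fold with an edgeR adjusted p of 0.0491, and no library could be left out without losing the call (0.119 to 0.206). The excess over E16 intestine, 3.41-fold, was not called (edgeR adjusted p = 0.0513). The spread of Jag2 was wide in E12 intestine, with 1 count (0.0338 CPM) in one library and 4.68 CPM in the other. In intestine it was lower at E18 (5.34 and 4.56 CPM) than at E16 (21.1 and 15.2 CPM), by 1.88 on the log2 scale (edgeR adjusted p = 0.0405), a call also lost without any one of the 4 libraries (0.0596 to 0.172).

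Notch1, the main receptor of gut epithelium together with Notch2, peaked at E14 in each organ. It was 32.6 and 36.3, 82.0 and 99.3, then 41.2 and 60.8 CPM in forestomach at E12, E14 and E16. In hindstomach it was 8.09 and 6.16, 82.8 and 74.9, then 43.0 and 50.5 CPM. In intestine it was 44.2 and 30.3, 73.7 and 61.5, then 26.3 and 23.6 CPM, with 36.8 and 33.4 CPM at E18. E14 lay above E12 and E16 without overlap in all 3 organs. The rise from E12 to E14 was called in forestomach (2.63-fold, edgeR adjusted p = 1.5e-04) and in the hindstomach-labelled libraries (11.1-fold, edgeR adjusted p = 5.0e-09), and was 1.82-fold in intestine (edgeR adjusted p = 0.00626), below the fold set for a call. The fall from E14 to E16 was called in intestine (2.71-fold, edgeR adjusted p = 4.6e-05). It was below the fold set for a call in forestomach (1.78-fold, edgeR adjusted p = 0.00436) and hindstomach (1.69-fold, edgeR adjusted p = 0.0118). E12 hindstomach-labelled libraries held 4.83-fold less than forestomach (edgeR adjusted p = 1.6e-06) and 5.22-fold less than intestine (edgeR adjusted p = 1.1e-06; 0.0657 in a fit of those groups alone). At E16 forestomach stood 2.05-fold above intestine (edgeR adjusted p = 9.2e-04), where leaving out forestomach library 2 or intestine library 2 brought the log2 fold change to 0.72 or 0.96.

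Notch2, the second of these receptors, also had its highest mean at E14 in each WT organ. It ranged from 12.2 to 34.1 CPM at E12, from 40.0 to 72.6 CPM at E14 and from 17 to 42.1 CPM at E16 in WT organs, and was 12.6 and 14.1 CPM in E18 intestine. It rose from E12 to E14 in forestomach (1.57 ± 0.36 SE, edgeR adjusted p = 0.00345) and in hindstomach-labelled libraries (1.41 ± 0.36 SE, edgeR adjusted p = 0.00536). The first call was lost without E12 or E14 forestomach library 2 (0.0645 and 0.0564), the second without E14 hindstomach library 1 (0.0787). In intestine it fell from E14 to E16 by 1.42 (SE 0.36, edgeR adjusted p = 0.0039). E16 hindstomach exceeded E16 intestine by 1.15 (edgeR adjusted p = 0.0164), but without any one of the 4 libraries the adjusted p was 0.0515 to 0.0834.

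Notch3, a receptor best known from mural cells around vessels, fell step by step in the intestine after E14. In forestomach it was 53.8 and 46.3 CPM at E12, 115 and 143 CPM at E14 and 16.4 and 47.8 CPM at E16. In hindstomach it was 33.0 and 38.2, 67.5 and 70.8, then 36.9 and 33.5 CPM. In intestine it was 31.8 and 39.6 CPM at E12, 49.1 and 70.5 CPM at E14, 10.6 and 9.55 CPM at E16 and 0.411 and 0.274 CPM at E18, which is 5 counts in each E18 library. It rose in forestomach from E12 to E14 (1.36 ± 0.31 SE, edgeR adjusted p = 0.00287) and fell 4.01-fold to E16 (edgeR adjusted p = 3.4e-05). That fall was called with any one library left out, but its size depended on the library. The log2 fold change ran from -2.98, without E16 forestomach library 2, to -1.43. In intestine it fell 5.93-fold from E14 to E16 (edgeR adjusted p = 4.6e-06) and 29.9-fold from E16 to E18 (edgeR adjusted p = 6.6e-08). At E16 intestine was 3.19-fold below forestomach (edgeR adjusted p = 2.9e-04) and 3.50-fold below hindstomach (edgeR adjusted p = 1.9e-04). Without E16 forestomach library 2 the first of these was 0.70 on the log2 scale and no longer called. At E14 forestomach was above intestine by 1.11 (edgeR adjusted p = 0.0138), lost without E14 forestomach library 2 (0.119) or E14 intestine library 1 (0.196). In intestine the mural and mesenchymal markers summed to 255 to 303 CPM at E14, 1364 to 1490 CPM at E16 and 5.32 to 6.82 CPM at E18, so they were higher at E16, where Notch3 was lower, and both were lower at E18. Between organs at E16, these markers and Notch3 were both higher in the stomach. The markers summed to 20057 to 25284 CPM in forestomach and 6905 to 7182 CPM in hindstomach. Their part in the level of Notch3 was not tested. In E14 forestomach, where Notch3 was highest, they summed to 113 to 118 CPM.

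**Figure D3:**
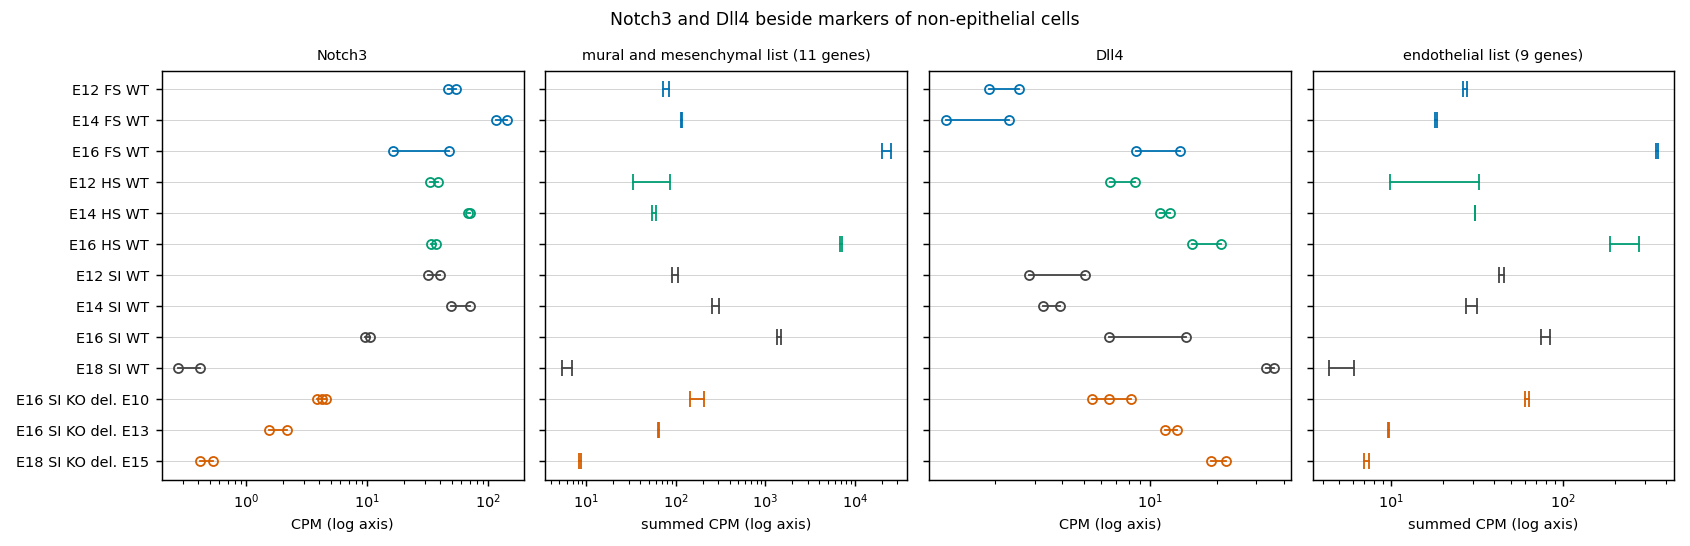
Notch3 and Dll4 in each embryonic library (circles, CPM, log axis) beside the lowest and highest summed CPM (ticks) of 11 mural and mesenchymal and 9 endothelial marker genes per group. Notch3 is highest in E14 forestomach, where the mesenchymal list is at 113 to 118 CPM, and Dll4 is highest in E18 intestine, where the endothelial list is at 4.36 to 6.09 CPM. At E16 Notch3 and the mesenchymal list are both higher in the stomach parts than in WT intestine. Dll4 and the endothelial list are both higher at E16 than at E14 in each WT organ.

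Hes1, the repressor that reports Notch activity in gut epithelium, fell between E14 and E16 in all 3 organs. It was 231 and 210 CPM in E12 forestomach, 232 and 225 CPM at E14 and 83.4 and 74.4 CPM at E16. Hindstomach held 104 and 122, 164 and 178, then 64.6 and 62.1 CPM. Intestine held 207 and 208, 152 and 164, then 45.2 and 52.4 CPM, with 32.1 and 34.3 CPM at E18. The fall from E14 to E16 was 2.90-fold in forestomach (edgeR adjusted p = 5.8e-04), 2.70-fold in hindstomach (edgeR adjusted p = 0.00185) and 3.24-fold in intestine (edgeR adjusted p = 3.4e-04), and each was called with any one library left out. In forestomach the epithelial marker sum was also lower at E16 than at E14 (836 to 904 against 3237 to 3288 CPM) and the mesenchymal and blood sums were higher (20057 to 25284 and 14361 to 19287 CPM against 113 to 118 and 5.75 to 9.71 CPM). The sum of the 5 forestomach markers was higher there too (3548 to 3699 against 1002 to 1005 CPM). In hindstomach the mesenchymal sum went from 54.7 to 60.5 CPM at E14 to 6905 to 7182 CPM at E16 and the blood sum from 4.8 to 6.09 to 1277 to 1765 CPM. The epithelial sum was also higher there (5340 to 5578 against 4019 to 4062 CPM). Epcam, the sorting marker and part of that sum, was lower, at 421 and 400 CPM against 752 and 737 CPM. In intestine the E16 sums were likewise higher than those at E14, for mesenchyme (1364 to 1490 against 255 to 303 CPM), blood (298 to 300 against 50.8 to 52.6 CPM) and epithelium (7873 to 8112 against 3703 to 4113 CPM). The part of these levels in the fall of Hes1 was not tested in any of the 3 organs. The changes from E12 to E14 in hindstomach-labelled libraries and intestine, and from E16 to E18 in intestine, were not called (edgeR adjusted p = 0.159, 0.358 and 0.154). No organ comparison within a stage called Hes1. Hes5, its relative in neural tissue, was at 3 counts or fewer in 26 of the 31 libraries and at 0 in 16, with a highest count of 22, in one E16 WT intestine library whose replicate was at 0.

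Atoh1 had its highest WT levels in intestine from E16. At E12 both intestine libraries were at 0, while forestomach held 0 and 0.518 CPM (0 and 20 counts) and hindstomach-labelled libraries 0.277 and 0 CPM (9 and 0 counts). In intestine this was followed by 0.626 and 0.789 CPM at E14, 5.99 and 12 CPM at E16 and 5.42 and 6.37 CPM at E18. Against the floor of 3 counts per library, E14 intestine was at least 7.18-fold higher than E12 and at least 5.97-fold higher than E14 forestomach, where both libraries were at 0. The edgeR adjusted p was 0.0217 and 0.0388, and these calls held in 8 of 13 alternatives (adjusted p 0.00253 to 0.0948) and 7 of 13 (0.00533 to 0.178). From E14 to E16 intestine Atoh1 was 12.7-fold higher (3.66 ± 1.26 SE, edgeR adjusted p = 0.0284). That call was lost without either E14 library (0.16 and 0.121) or without E16 library 2 (0.115), although all 4 E16 and E18 libraries lay above every WT stomach library. Hindstomach at E16 held 1.11 and 1.78 CPM and forestomach 0.154 and 0.919 CPM. E16 forestomach was 16.5-fold below intestine (edgeR adjusted p = 0.0254), lost without either forestomach library (0.163 and 0.0532) or without intestine library 2 (0.0943). On the log2 scale it was -4.05, and -3.28 and -5.82 without forestomach library 1 and 2. In forestomach the call from E14 to E16 rests on 1 and 6 counts against 0 and 0 (edgeR adjusted p = 0.0361, at least 4.53-fold, called in 7 of 11 alternatives with adjusted p from 0.00339 to 0.321). Hindstomach against intestine at E16 was not called (-2.63 ± 1.21 SE, edgeR adjusted p = 0.0964), nor was the step from E16 to E18 (edgeR adjusted p = 0.686).

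Genes of the secretory programme downstream of Atoh1 moved in the same interval. Of 10 such genes, 6 rose in intestine from E14 to E16 and 0 fell, where 25.6% of all genes were called in either direction, with a median log2 fold change of 1.96 against -0.08 over all genes. In order of expression they were Agr2, a chaperone of mucin-making cells (4.22 to 5.39 CPM at E14, 446 to 489 CPM at E16), Tff3, a goblet cell peptide (14.6 to 17.1 and 609 to 649 CPM), and Muc2, the goblet cell mucin (0.177 to 0.276 and 23.9 to 32.1 CPM), then Creb3l1, Spdef and Creb3l4, which are transcription factors of secretory cells. Gfi1, Neurog3, Neurod1 and Insm1, factors of goblet, Paneth or enteroendocrine precursors, were not called there. In the hindstomach-labelled libraries, of which those of E12 carry intestinal levels of Cdx2, 7 of the 10 rose from E12 to E14 and 1 fell (17.2% of all genes), without a called change of Atoh1. Neurog3, the switch for enteroendocrine cells, went from 0 in both E12 libraries to 88.7 to 91.0 CPM at E14, at least 987-fold higher against the floor of 3 counts per library (edgeR adjusted p = 4.2e-08). From E14 to E16 it fell by 3.80 on the log2 scale in hindstomach (edgeR adjusted p = 7.3e-05) and Neurod1 by 2.59 (edgeR adjusted p = 0.0274), while Creb3l1 and Tff3 rose. Of the 38 other pathway genes tested (ligand processing, receptor maturation and cleavage, nuclear partners and inhibitors, further targets), 7 rose and 3 fell in intestine from E14 to E16, a share near the 25.6% of all genes. The most expressed were Aph1a, a gamma-secretase subunit (1.29), Poglut1, which adds sugars to the receptors (-1.51), and Pofut1, which does likewise (1.07). Nrarp, a target that feeds back on Notch, rose from 5.61 to 5.84 CPM at E14 to 40.8 to 47.9 CPM at E16, where Hes1 fell.

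The libraries labelled deleted at E10 held the most Hes1 and almost no Dll1. Hes1 was 1543, 1620 and 495 CPM, against 45.2 and 52.4 CPM in E16 WT intestine, and even the lowest of the 3 lay above every other library of the series. The difference was 25.0-fold (4.64 ± 0.35 SE, edgeR adjusted p = 9.1e-10), and 4.44 to 5.02 on the log2 scale with any one library left out. Dll1 was 1.47, 1.26 and 2.22 CPM against 40.4 and 36.2 CPM, 23.8-fold lower (-4.57 ± 0.30 SE, edgeR adjusted p = 1.0e-10; -4.80 to -4.34 with a library left out). Notch3, at 4.54, 3.86 and 4.2 CPM, was 2.39-fold lower (edgeR adjusted p = 0.00154). The mural and mesenchymal markers were also lower in these libraries, at 145 to 209 CPM against 1364 to 1490 CPM, and their part in the difference of Notch3 was not tested. Cym, a stomach protease gene, made up 8.26% to 11.7% of all counts in these libraries.

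Other differences of the same group were less firm. Notch2 was 5.48, 9.06 and 11.9 CPM against 18.9 and 18.5 CPM (-1.11 ± 0.33 SE, edgeR adjusted p = 0.00743), below the fold set for a call under DESeq2's scaling (-0.96) and without library 1 (-0.84). Jag2 was 4.21, 7.63 and 2.84 CPM against 21.1 and 15.2 CPM (-1.88 ± 0.66 SE, edgeR adjusted p = 0.0194), lost without E16 WT library 1 (0.102) or without library 1 or 3 of the group (0.0583 and 0.0611), and with the replicate number as a block (0.0582). Atoh1 was 0.134, 1.93 and 2.59 CPM against 5.99 and 12 CPM (-2.57 ± 1.07 SE, edgeR adjusted p = 0.0453). Its groups did not overlap, but DESeq2 gave an adjusted p of 0.0733, and the call was lost without either WT library (0.0542 and 0.208) or without library 1 or 2 (0.122 and 0.0838). Notch1 was 1.47-fold lower (edgeR adjusted p = 0.0242), under the fold set for a call, and Dll4 and Jag1 were not called (edgeR adjusted p = 0.122 and 0.39). Hes5 also passed the threshold, but the 3 libraries were at 0 and the WT libraries at 22 and 0 counts, so that call (edgeR adjusted p = 0.0428) rests on 1 library and held in 3 of 12 alternatives, with adjusted p from 0.0203 to 1. In all, 7 of the 10 genes were called, 1 higher and 6 lower, where 51.5% of all tested genes were. DESeq2 called 4 of the 10, and without the libraries labelled deleted at E13 and E15 in the fit edgeR called 5.

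**Figure D4:**
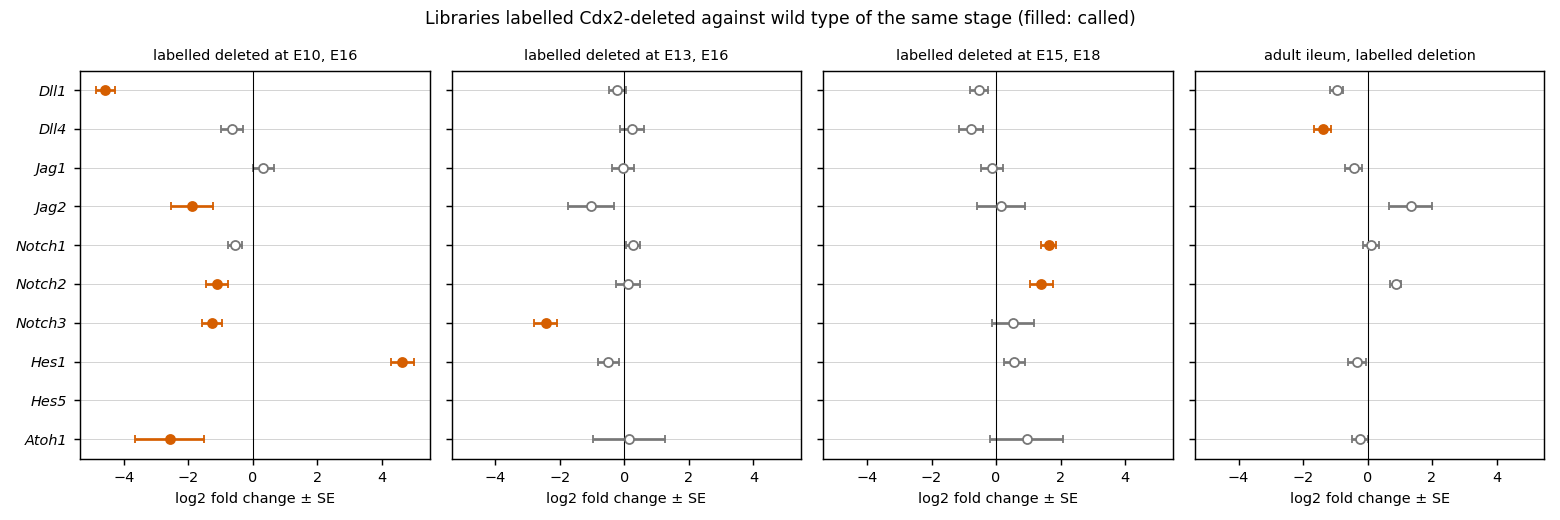
Difference from WT, as log2 fold change ± SE, of each gene in libraries labelled Cdx2-deleted against WT of the same stage; filled orange points were called, and genes with a whole group at 3 counts or fewer per library, or not tested, have no point. Hes1 at 4.64 and Dll1 at -4.57 in the group labelled deleted at E10 stand far from 0, while the groups labelled deleted at E13, E15 and in adult ileum have 1, 2 and 1 called genes.

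Of the 38 other genes of the pathway that were tested, 3 were higher and 19 lower in the libraries labelled deleted at E10, 22 in all, a share near the 51.5% called over all genes. They had a median log2 fold change of -1.32 against -0.10 over all genes. The gamma-secretase subunits moved apart: Ncstn (-2.13) and Aph1a (-3.32) were lower and Psenen was higher (1.25). The RBPJ cofactor Snw1 was higher (1.14), and Itch, a ubiquitin ligase that marks Notch for breakdown, was lower (-1.48). Rbpj itself fell 1.46 on the log2 scale (edgeR adjusted p = 8.4e-06). Nrarp was at 10.5 to 15.9 CPM against 40.8 to 47.9 CPM, lower by 1.74 (edgeR adjusted p = 6.2e-06), and Heyl, a further target, was also lower (-2.95, edgeR adjusted p = 0.0274), so neither shared the rise of Hes1. Of the 10 secretory genes, Agr2 (2.00), Spdef (1.61) and Creb3l4 (3.55) were higher, and Tff3 (-1.08), Muc2 (-2.16), Neurog3 (-2.32), Neurod1 (-2.23), Insm1 (-1.85) and Gfi1 (-4.17) were lower. E16 hindstomach held 244 to 265 CPM of Agr2, 49.6 to 60.5 CPM of Spdef and 27.9 to 31.4 CPM of Creb3l4, against 1337 to 2408, 46.4 to 107 and 78.8 to 149 CPM in the group labelled deleted at E10. The 5 hindstomach markers summed to 3422 to 8087 CPM in these libraries, against 4.48 to 5.99 CPM in E16 WT intestine, and the 6 intestinal markers to 90.3 to 132 CPM against 2150 to 2177 CPM. The 5 forestomach markers were also higher, at 336 to 1373 CPM against 0.491 to 1.66 CPM. They summed to 125 to 143 CPM in E16 hindstomach and 3548 to 3699 CPM in E16 forestomach.

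Hes1 in the libraries labelled deleted at E10 also exceeded WT stomach of the same day. It was 19.2-fold above E16 hindstomach (4.27 ± 0.35 SE, edgeR adjusted p = 1.9e-09) and 15.5-fold above E16 forestomach (3.95 ± 0.34 SE, edgeR adjusted p = 5.2e-09). Against hindstomach 8 of the 10 genes were called (56.3% of all genes), Hes1 higher and Dll1, Dll4, Jag1, Jag2, Notch1, Notch2 and Notch3 lower, of which Jag2 lost its call without either hindstomach library (0.058 and 0.0991) or without library 1 or 3 (0.0763 and 0.0823). Against forestomach 6 were called (53.3%), Hes1 higher and Dll1, Jag2, Notch1, Notch2 and Notch3 lower, with Notch2 at -0.97 and no longer called without E16 forestomach library 2. Notch3 was at -2.93 there, and at -1.96 without that library. Dll1 was 7.05-fold below hindstomach (edgeR adjusted p = 7.3e-08) and 4.92-fold below forestomach (edgeR adjusted p = 3.2e-06). The median log2 fold change over all genes was -0.49 against hindstomach and -0.07 against forestomach, so genes in general were also lower against hindstomach. Over the 10 genes the medians were -1.68 and -1.63. The stomach libraries carry far higher mesenchymal sums than the group labelled deleted at E10, and the part of this in the lower receptor levels was not tested.

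The libraries labelled deleted at E13 differed from E16 WT intestine by a call in 1 of the 10 genes. Dll1 was 31.9 and 33.9 CPM, Hes1 33.8 and 35.2 CPM, Atoh1 9.84 and 10.1 CPM, Notch1 28.2 and 31.9 CPM and Notch2 20.7 and 19.5 CPM, with edgeR adjusted p = 0.526, 0.198, 0.94, 0.322 and 0.83 against WT. That gene was Notch3 (39.5% of all genes were called), at 1.53 and 2.19 CPM against 10.6 and 9.55 CPM (-2.44 ± 0.36 SE, edgeR adjusted p = 1.1e-05). The mural and mesenchymal markers were at 62.9 to 65.0 CPM there against 1364 to 1490 CPM, and their part in this was not tested. The 5 hindstomach markers summed to 4015 to 4022 CPM against 4.48 to 5.99 CPM, and the 6 intestinal markers, Cdx2 among them, were also higher, at 3605 to 3656 CPM against 2150 to 2177 CPM. Of the 10 secretory genes Muc2 was higher, at 925 to 929 CPM against 23.9 to 32.1 CPM, and Neurog3 (0.661 to 0.758 against 7.04 to 11.3 CPM) and Neurod1 were lower. Of 38 other pathway genes 6 were higher and 10 lower, the most expressed being Adam10, the protease that makes the first cut in the receptor (1.62), the repressor Spen (2.23) and Pofut1 (-1.72). Set directly against each other, the libraries labelled deleted at E10 differed from those labelled deleted at E13 in 5 of 10 genes (57.4% of all genes). Hes1 was 35.3-fold higher (5.14 ± 0.36 SE, edgeR adjusted p = 1.9e-10) and Dll1 20.5-fold lower (-4.36 ± 0.29 SE, edgeR adjusted p = 1.0e-10). Notch2 was 2.32-fold lower (edgeR adjusted p = 0.00332; -0.95 without library 1 labelled deleted at E10), and Notch3 was 2.27-fold higher (edgeR adjusted p = 0.00583; 0.079 without library 1 labelled deleted at E13). Atoh1 was lower by 2.72 (edgeR adjusted p = 0.0329). The call was lost without any one of libraries 1 and 2 of either group, with log2 fold changes from -2.93 to -2.14. It was also lost with DESeq2 (DESeq2 adjusted p = 0.0528) and with near-identical pairs summed (-2.81).

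In the libraries labelled deleted at E15, Notch1 and Notch2 were higher. Notch1 was 111 and 107 CPM against 36.8 and 33.4 CPM in E18 WT (1.64 ± 0.23 SE, edgeR adjusted p = 1.7e-05), the highest of any embryonic group. Notch2 was 37.0 and 33.8 CPM against 12.6 and 14.1 CPM (1.40 ± 0.36 SE, edgeR adjusted p = 0.00601; 0.0587 without E18 WT library 1, and 0.135 with near-identical pairs summed). These were 2 of 10 called genes, where 17.5% of all genes were called. Against E18 WT, the hindstomach markers summed to 176 to 197 CPM against 1.23 to 1.87 CPM, the intestinal markers to 3168 to 3243 CPM against 8968 to 8990 CPM, and the blood markers to 8.11 to 8.64 CPM against 247 CPM. Their part in the receptor levels was not tested. Notch3, at 0.413 and 0.535 CPM against 0.411 and 0.274 CPM, was not called (edgeR adjusted p = 0.619). Dll1 (70.7 and 68.5 CPM), Dll4 (21.8 and 18.8 CPM), Hes1 (50.2 and 48.4 CPM) and Atoh1 (11.5 and 11.2 CPM) each lay outside the range of E18 WT, the ligands below and the others above, but were not called (edgeR adjusted p = 0.154, 0.142, 0.205 and 0.608). The difference between the group labelled deleted at E15 and E18 WT was larger than that between the group labelled deleted at E13 and E16 WT by 1.37 ± 0.31 SE for Notch1 (edgeR adjusted p = 0.00142). For this difference of differences 3 of 10 genes were called, against 37.9% of all genes. Of the 38 other pathway genes, 2 were higher and 8 lower. The higher ones were Adam10 (1.13) and Mib1, a ligase that lets ligands pull on receptors (1.10, edgeR adjusted p = 0.0474). Mib2, a ligase related to Mib1, was lower (-1.25, edgeR adjusted p = 4.3e-04), as was Rfng, which adds sugars to the receptors (-1.10). Dtx1, a ubiquitin ligase of Notch, was 1.49 to 1.65 CPM against 52.5 to 54.9 CPM, and Hes2, another Hes gene, was 3.72 to 3.82 CPM against 67.3 to 73.1 CPM. Of the 10 secretory genes only Neurod1 was called, lower by 3.02 on the log2 scale.

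In adult ileum, Dll4 was the 1 called gene of the 8 tested (20.4% of all genes). It was 8.74 and 13.7 CPM in the libraries labelled deleted against 31.8 and 26.6 CPM (-1.39 ± 0.26 SE, edgeR adjusted p = 0.0188). The call was lost without WT library 1 (0.0636) or library 1 labelled deleted (0.0683). The blood markers were also lower in the libraries labelled deleted (3.81 to 3.85 against 22.6 to 49.7 CPM), as were the intestinal ones (3976 to 4411 against 7421 to 7447 CPM), and the epithelial ones were higher (12729 to 12768 against 8241 to 10369 CPM). The hindstomach markers were higher as well (7.04 to 13 against 0 to 0.0625 CPM), and the sums of the remaining lists are not reported here. The part of these sums in the level of Dll4 was not tested. Dll1 was 17.3 and 20.7 CPM against 42.5 and 31.2 CPM, 1.94-fold lower with an edgeR adjusted p of 0.0266, just under the fold set for a call. Notch2 was 17.9 and 14.6 CPM against 9.01 and 8.84 CPM, 1.82-fold higher (edgeR adjusted p = 0.0234). Atoh1 was 29.4 and 32.2 CPM against 28.1 and 45.0 CPM and Hes1 10.7 and 11.8 CPM against 10.7 and 17.7 CPM, and neither was called (edgeR adjusted p = 0.472 and 0.388). Jag2 spread from 3.28 to 13 CPM between the libraries labelled deleted. Of the other pathway genes 3 were higher and 7 lower of 34 tested. Adam10 was again higher (1.15). Hes2 was lower, at 1.74 to 3.35 CPM against 28.7 to 35.5 CPM, and so was Dtx1, at 0.0414 to 0.428 CPM against 5.00 to 8.16 CPM. Neurod1, Insm1 and Neurog3 were lower among the 10 secretory genes.

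Over the group means of log2 CPM, given as a description, Hes1 and Atoh1 ran against each other (Pearson's r = -0.89 over the 10 WT embryonic groups and -0.64 over all 13), as did Hes1 and Dll4 (-0.86 and -0.65), Notch3 and Atoh1 (-0.73 and -0.82) and Notch3 and Dll4 (-0.72 and -0.71). Notch3 ran with Hes1 (0.82 and 0.47). Dll1 and Dll4 ran with Atoh1 (0.62 and 0.60, 0.69 and 0.71), and Jag1 with Notch1 (0.89 and 0.81). Stage, preparation and depth are shared within these groups. Atoh1 had at least 1 library at the floor in every E12 group, in E14 forestomach and hindstomach and in E16 forestomach. The group labelled deleted at E10 did too, so differences of Atoh1 among these low groups say little. Of 10677 genes compared over the 13 groups, those most like Atoh1 were Creb3l3 (r = 0.969), Gpd1 (0.968) and Ifngr1 (0.962). Of 10676 compared, those most like Dll1 were Fam53b (0.902), Tapt1 (0.865) and Zfpm1 (0.864), those most like Hes1 were Vps36 (0.974), Nkap (0.964) and Lyrm2 (0.961), and those most like Notch1 were Zfp369 (0.816), Jag1 (0.805) and Znf512b (0.783).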

How the data were processed

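RNA-seq libraries were compared; the 43 chromatin samples of the series were not analysed here. The deposited table holds raw read counts per gene symbol, made by the authors from 75 bp single-end reads of SMARTer (embryo) or TruSeq (adult) libraries per the labels' protocols. The submitters' processing notes name STAR 2.5.3a, HTSeq and mm9, without roles; strand setting and filters are not given in the sources used here. E12 to E16 epithelium was freed with trypsin and sorted for Epcam, while E18 and adult villi were freed with EDTA and not sorted, per the labels' protocols. Each adult column had 2 blank cells, which were closed up, and no gene described here lies below the first blank. A further 2 columns match no sample and were not used.

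Counts were fitted with edgeR 4.0.16 in R 4.3.3 (TMM scaling, filterByExpr with a minimum count of 10, quasi-likelihood test, Benjamini-Hochberg adjustment over all genes). One fit held the 27 embryonic libraries (17239 genes) and another the 4 adult libraries (12444 genes). CPM are on TMM-scaled library sizes, separately for embryo and adult. A library with 3 counts or fewer of a gene is at the floor, and floors cover counting error only. The SE values were derived from the quasi-likelihood test, so they also take in the spread between libraries. Alternatives were DESeq2 1.42.0, its scaling in edgeR, no filter, a replicate block, fits of the compared groups alone and leaving out libraries. The procedure was tested on simulated data: for the group labelled deleted at E10 against WT (16725 genes), 75 of 100 genes changed by 2 and 93 of 100 changed by 3 on the log2 scale were recovered, with 4 false calls. In the adult comparison (12225 genes) 90 and 97 of 100 were recovered, with 26 false calls.

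The 10 genes were always named. Genes of the pathway and secretory lists were given as counts, with values for called ones starting from the most expressed, and the 3 genes with the highest correlation of group means were named as most alike. Some list genes are not reported here. The pathway genes Nrarp, Heyl, Rbpj, Dtx1 and Hes2 were singled out after their values were seen. Members and lists were chosen with earlier results of these data known. Embryonic replicate numbers did not pair the samples (correlation of deviations at most 0.097), so the main fit has no block.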

Additional observations from a re-analysis of the deposited data

Results flagged for a closer look

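Some changes differed between groups by a direct test of the difference (edgeR interaction term, adjusted over all genes). From E14 to E16, the change of Dll1 was 2.91 ± 0.40 SE higher on the log2 scale in intestine than in hindstomach (edgeR adjusted p = 4.4e-05), and it was lower in hindstomach than in forestomach (-1.98 ± 0.42 SE, edgeR adjusted p = 0.00269). Both were called with any one library left out. For Notch3, the change was more negative in intestine than in hindstomach (-1.60 ± 0.43 SE, edgeR adjusted p = 0.0159), a call lost without either E14 hindstomach library, E14 intestine library 2, E16 hindstomach library 1 or E16 intestine library 2 (0.0521 to 0.085).

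Between hindstomach and forestomach, where 3 of the 10 genes were called against 11.8% of all genes, the change of Dll4 differed by -2.03 ± 0.56 SE (edgeR adjusted p = 0.0182) and that of Jag1 by 1.48 ± 0.49 SE (edgeR adjusted p = 0.048). The first was lost without E14 forestomach library 2, E14 hindstomach library 1, E16 forestomach library 1 or E16 hindstomach library 2 (0.0595 to 0.103), the second without any one of the 8 libraries (0.0557 to 0.168) and under DESeq2 (0.0545).

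The difference from WT in libraries labelled deleted at E15 exceeded that in libraries labelled deleted at E13 by 1.37 ± 0.31 SE for Notch1 (edgeR adjusted p = 0.00142), by 1.3 ± 0.51 SE for Notch2 (edgeR adjusted p = 0.0452) and by 2.97 ± 0.74 SE for Notch3 (edgeR adjusted p = 0.0026). The Notch2 call was lost without any one of the 8 libraries (0.0744 to 0.123) and under DESeq2 (0.054). The Notch3 value sets a difference at E16 against levels of 5 to 14 counts at E18.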

How the results depend on the processing

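Of 92 called values with neither group at the floor, 0 reversed under any alternative run. DESeq2 lost 6, its scaling in edgeR 5, no filter on low counts 1 and the replicate block 3, while fits of the compared groups alone lost 5 of 91. Alternatives chosen after seeing the data lost 12 of 91 (replicate pairs with near-identical counts summed), 8 of 80 (without the libraries labelled deleted at E13 and E15), 1 of 72 (without E16 forestomach) and 2 of 80 (without the E12 hindstomach label). Leaving out 1 library at a time lost 34. The calls among the 10 genes, summed over comparisons, then ranged from 22 to 32 between organs (28 with all libraries), from 27 to 31 between stages (30), from 6 to 11 in embryonic libraries labelled deleted (10), from 0 to 2 in adult ileum (1), from 16 to 19 for the group labelled deleted at E10 against the group labelled deleted at E13 or stomach (19), and from 5 to 9 for differences of change (8). Without a fold minimum the adult count was 3. Differences of change gave 14 calls with the compared groups alone and 5 with near-identical pairs summed; the cause was not tested.

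With the replicate block the counts were 28, 30, 8, 1, 18 and 8 in the same order, and the called values lost under it were Jag2 in the group labelled deleted at E10 against WT and hindstomach, Hes5 in that group against WT (adjusted p = 0.096) and Jag1 in the difference between hindstomach and forestomach. Adult numbers correlated at -0.152, and crossing them also gave 1 call. Values that were not called and changed sign with a library left out were Dll4 in libraries labelled deleted at E10 (-1.11 to 0.04) and Atoh1 in those labelled deleted at E13 (-0.26 to 0.74), turning without E16 WT intestine library 1, and adult Hes1 (-0.65 to 0.07) and Atoh1 (-0.54 to 0.12), turning without WT library 2.

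Over all genes, counts of calls moved by more than 1.5 times in fits of the compared groups alone: E12 forestomach and hindstomach against intestine gave 188 (against 1740) and 122 (against 1599), intestine from E12 to E14 214 (against 2795), E14 forestomach against hindstomach 2233 (against 1459) and hindstomach against intestine 2480 (against 1178), and the intestine to hindstomach difference of change 3813 (against 2255). With near-identical pairs summed, the group labelled deleted at E15 gave 1552 (against 3015).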
